A study of Mus musculus with 39 samples.

Results

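The heat shock proteins and DnaJ chaperones were examined in 4 tissues of perforin-deficient mice. They were taken as every gene whose symbol begins with Hspa, Hspb, Hspd, Hspe, Hsph, Hsp90 or Dnaj, without the Hspbp and Hspbap genes, which encode binding partners. The rule used symbols and no measured value. It gave 72 of 24537 genes in the table of kidney, liver and lung, and 84 of 52508 in a separate table of skin, where the 72 genes were joined by 12 pseudogenes. By role, the 72 comprised 11 cytosolic HSP70 and HSP110 genes, 2 cytosolic HSP90 genes, 8 cytosolic DnaJA and DnaJB genes, 13 chaperones and DnaJ proteins of the endoplasmic reticulum (ER), 10 of mitochondria, 8 small heat shock proteins, 14 other DnaJC genes and 6 DnaJ genes restricted to germ cells or few tissues.

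All mice were C57BL/6 that lacked perforin (Prf1-/-), the pore-forming protein of cytotoxic lymphocytes, so this deletion was shared by every group and no wild-type mice were compared. Young mice were 3 months old and untreated. Old mice were 20 months old and had received either ABT-737 at 25 mg/kg or its vehicle (DM), with injections on 2 consecutive days in each of 2 months, beginning at 18 months of age. The treatment field names ABT-737 for replicate 3 of this group but ABT-738 for replicate 4 and ABT-739 for replicate 5 in every tissue, and these were read as ABT-737, the agent named in the protocol of all samples. ABT-737 is a small-molecule inhibitor of anti-apoptotic BCL-2 family proteins that is used to kill senescent cells. Kidney, liver and lung had 4 young, 3 vehicle and 3 ABT-737 libraries each, and skin had 3 of each. The vehicle and young groups therefore differed in age and in injections at once, and these cannot be told apart. The libraries were made from the 3′ ends of mRNA of whole tissue, in which fewer cells of a type and less RNA per cell cannot be told apart.

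Chaperones bind unfolded or newly made proteins and keep them from aggregating. HSP70 proteins do this in cycles of ATP hydrolysis that DnaJ (HSP40) partners start and HSP110 proteins reset, HSP90 acts on partly folded clients, and small heat shock proteins hold unfolded chains without ATP. Heat and other protein damage activate the transcription factor HSF1, which binds inverted repeats of the unit GAA (heat shock elements), whereas unfolded protein in the ER acts through a separate element in promoters of ER chaperones.

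The promoters of some genes named in the results are printed to show these elements. They are the 250 bases before the annotated start, from RefSeq on GRCm38.p6, written 5′ to 3′ on the strand of the gene, with matched elements in capitals. The first pair is Hspa1a (chr17:34972157-34972406, minus strand) and Hspa1b (chr17:34959239-34959488, minus strand), the inducible HSP70 genes. Their windows differed at 3 positions (98.8% identity), and each held 1 match to GAANNTTC, which began 104 bases before the start.
Hspa1a: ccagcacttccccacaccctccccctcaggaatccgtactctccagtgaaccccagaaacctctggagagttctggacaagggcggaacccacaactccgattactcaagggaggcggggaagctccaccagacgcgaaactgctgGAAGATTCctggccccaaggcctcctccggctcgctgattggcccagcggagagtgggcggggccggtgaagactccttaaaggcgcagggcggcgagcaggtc
Hspa1b: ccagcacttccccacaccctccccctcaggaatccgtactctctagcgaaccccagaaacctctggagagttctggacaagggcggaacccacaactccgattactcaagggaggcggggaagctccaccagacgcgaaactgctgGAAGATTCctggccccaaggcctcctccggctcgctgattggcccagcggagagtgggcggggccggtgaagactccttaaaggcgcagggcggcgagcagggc
The second set holds the ER stress response element, CCAAT and CCACG with 9 unspecified bases between them, searched on both strands. It is Hspa5 (chr2:34771840-34772089, plus strand), which encodes the ER HSP70 protein BiP, Hsp90b1 (chr10:86705445-86705694, minus strand), which encodes the ER HSP90 protein, and Dnajc3 (chr14:118937682-118937931, plus strand), which encodes an ER DnaJ partner of BiP. The match began 65 bases before the start in Hspa5 and 105 in Dnajc3, and Hsp90b1 held 2 matches, at 212 and 107. These 3 genes are all the members with a match, so the set follows the element and not the results. Dnajb9, which was lower in old liver, is not among them, and Hsp90b1 did not pass there.
Hspa5: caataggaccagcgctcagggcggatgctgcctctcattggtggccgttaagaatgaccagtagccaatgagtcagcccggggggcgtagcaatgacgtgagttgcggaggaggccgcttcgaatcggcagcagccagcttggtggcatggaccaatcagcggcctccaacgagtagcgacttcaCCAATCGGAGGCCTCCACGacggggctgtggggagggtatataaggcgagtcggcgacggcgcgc
Hsp90b1: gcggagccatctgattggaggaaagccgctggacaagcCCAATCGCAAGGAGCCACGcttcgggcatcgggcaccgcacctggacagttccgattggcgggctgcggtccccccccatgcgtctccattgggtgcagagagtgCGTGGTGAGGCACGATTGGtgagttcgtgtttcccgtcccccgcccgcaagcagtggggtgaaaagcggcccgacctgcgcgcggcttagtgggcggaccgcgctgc
Dnajc3: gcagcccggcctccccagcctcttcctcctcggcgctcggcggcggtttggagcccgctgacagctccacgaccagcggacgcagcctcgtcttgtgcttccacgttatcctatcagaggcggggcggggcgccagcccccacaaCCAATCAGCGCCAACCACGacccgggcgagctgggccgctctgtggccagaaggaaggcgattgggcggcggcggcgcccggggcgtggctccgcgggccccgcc
The 58 chaperone genes with a RefSeq promoter window of this length had 75 windows, since some genes have more than 1. The ER stress response element occurred in 0.113% of all 32851 windows and in 3 of these 75, of 3 genes. A match to GAANNTTC or TTCNNGAA, each its own reverse complement, occurred in 12.8% of all windows and in 16 of the 75, of 14 genes. A longer form of 3 units, GAANNTTC followed by NNGAA on either strand, contains the shorter ones. It occurred in 0.466% of all windows and in 4 of the 75, of Dnajb6, Hspd1 and Hspe1. A match describes letters in the window and not a bound site.

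Libraries held 1431814 to 3513311 counts in kidney, 1046508 to 2600092 in lung, 1493411 to 3842808 in skin and 223957 to 891116 in liver, where the fewest genes could be tested. Of the chaperone genes, 60 of 72 passed the filter on low counts in kidney, 37 in liver, 62 in lung and 69 of 84 in skin. Levels are CPM, the counts scaled to a common library size within each fit, and they compare 1 gene across libraries. Differences are on the log2 scale. Adjusted p-values are from the quasi-likelihood test of edgeR, adjusted by Benjamini and Hochberg's method over all genes of the fit. The value after ± of a difference is an approximate standard error, its absolute size divided by the square root of that test's F statistic. "Passed" means an adjusted p under 0.05. Tissue markers fitted the label in each tissue. Some libraries stood apart from their group: vehicle replicate 3 in liver by its low depth, vehicle replicate 5 in lung by leukocyte markers (12750 CPM in sum), ABT-737 replicate 3 in lung by erythroid markers (69490 CPM), ABT-737 replicate 4 in lung by adipocyte markers (4979 CPM), and vehicle replicate 5 in skin by few skeletal muscle transcripts (9690 CPM, with 35380 and 44980 in the other vehicle libraries).

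In young mice chaperone levels differed widely between kidney, liver and lung. Mitochondrial chaperones were lower in lung, some ER chaperones were highest in liver, and several small heat shock proteins and DnaJC genes were near absent from a tissue. Of 63 members tested, 49 differed between lung and kidney (74.7% of all genes did), 43 between lung and liver (69.4%) and 27 between kidney and liver (51.5%), so the shares of members that passed lay near or under the background. In lung 12 members were higher (36.5% of all genes) and 37 lower (38.3%) than in kidney, so that the lower side held 58.7% of the members. Kidney against liver gave 17 higher (33.7% of all genes) and 10 lower (17.8%), a split that became 13 and 12 under DESeq2's size factors, which moved the median of all genes in that comparison from 0.34 to 0.21. Levels set side by side across young tissues are scaled in 1 fit of the young libraries (mean ± SD, n = 4) and differ slightly from those scaled within a tissue.

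All 10 mitochondrial members were lower in young lung than in young kidney and passed, with a median difference of -1.93, and all 10 had lower means than in liver, of which 8 passed. Hspd1, the mitochondrial chaperonin, stood at 301 ± 12.5 CPM in kidney, 279 ± 30.8 in liver and 67.2 ± 10.9 in lung. Hspe1, its lid, stood at 389 ± 21.2, 288 ± 41.3 and 102 ± 13.6 CPM. Hspa9, the mitochondrial HSP70, stood at 352 ± 13.3, 380.5 ± 71.6 and 53.99 ± 11.8 CPM. Kidney and liver did not differ past the threshold in Hspd1 or Hspa9 (adjusted p = 0.555 and 0.56), whereas Hspe1 was higher in kidney (adjusted p = 0.0113).

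Several ER chaperones had the order liver, kidney, lung. Hspa5 stood at 594 ± 73.9 CPM in young liver, 201 ± 37.8 in kidney and 99.6 ± 17.04 in lung, Hsp90b1 at 617 ± 54.3, 250.1 ± 34.6 and 148 ± 9.08, and Dnajc3 at 245 ± 52.6, 97.6 ± 7.197 and 72.8 ± 12.4. Dnajb9, an ER DnaJ protein that takes part in the clearance of misfolded proteins, stood at 66.3 ± 18.2, 28.7 ± 5.67 and 12 ± 3.402 CPM. In each of these 4 genes both steps of the order passed the test. The ER members Dnajb11 (109.6 ± 8.86, 88.4 ± 10.7 and 49.4 ± 7.68 CPM) and Hspa13 (8.05 ± 2.15, 7.74 ± 0.89 and 5.31 ± 1.8 CPM) had the same order of means. In both, liver and kidney did not differ past the threshold (adjusted p = 0.109 and 0.905). Of the 13 ER members, 5 were higher in liver than in both other tissues and passed against each (13.6% of all genes did), 1 was so in kidney (17.2%) and none in lung (28.7%). Over all 63 members tested these counts were 8, 10 and 9. Inducible Hspa1a had another order, with 63.4 ± 18.9 CPM in kidney, 39.5 ± 13.1 in lung and 5.97 ± 4.26 in liver, and both steps passed (adjusted p = 0.00572 and 8.98e-06).

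The widest differences between young tissues lay in members with restricted patterns. Hspb8, a small heat shock protein that works with BAG3 in the autophagy of damaged proteins, stood at 366 ± 36.2 CPM in liver, 89.7 ± 3.88 in lung and 6.91 ± 1.25 in kidney, a difference of -5.71 ± 0.17 between kidney and liver (adjusted p = 4.73e-22). Dnajc12, a DnaJ protein that binds aromatic amino acid hydroxylases, stood at 250.1 ± 26.2 CPM in kidney, 16.5 ± 1.53 in liver and 5.13 ± 0.846 in lung, with -5.60 ± 0.18 between lung and kidney (adjusted p = 1.75e-21). In both genes the pair of tissues tested did not overlap in any library. Dnajc22 stood at 127 ± 20.3 CPM in liver and 80.7 ± 5.79 in kidney, and had at most 1 count in any lung library. Dnajb13, a DnaJ protein of cilia, stood at 12.6 ± 4.22 CPM in lung, with at most 2 counts in any kidney and 3 in any liver library. Ciliated cell markers summed to 1212 to 1556 CPM in young lung, 18.01 to 27.01 in kidney and 5.75 to 7.75 in liver. Hspa12b, an HSP70 relative of endothelium, stood at 36.7 ± 7.85 CPM in lung and 1.59 ± 0.9798 in kidney, and Hspa12a at 25.6 ± 3.88 in kidney and 24.3 ± 2.53 in lung, with 1.05 ± 2.095 in liver. Hspb2 and Hspb7, small heat shock proteins of muscle and heart, stood at 18.3 ± 6.46 and 22.9 ± 8.83 CPM in lung and had 0 counts in every liver library. Cardiac muscle markers summed to 1067 to 1967 CPM in young lung and 1.94 to 5.75 in young liver, and their part in these values was not tested. Dnajc6, the DnaJ protein that uncoats clathrin vesicles, stood at 17.5 ± 2.26 CPM in kidney and 1.06 ± 0.453 in lung and had 0 counts in every liver library. A count of 0 allows a level of up to 3 counts, and this limit covers counting error only.

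**Figure D1:**
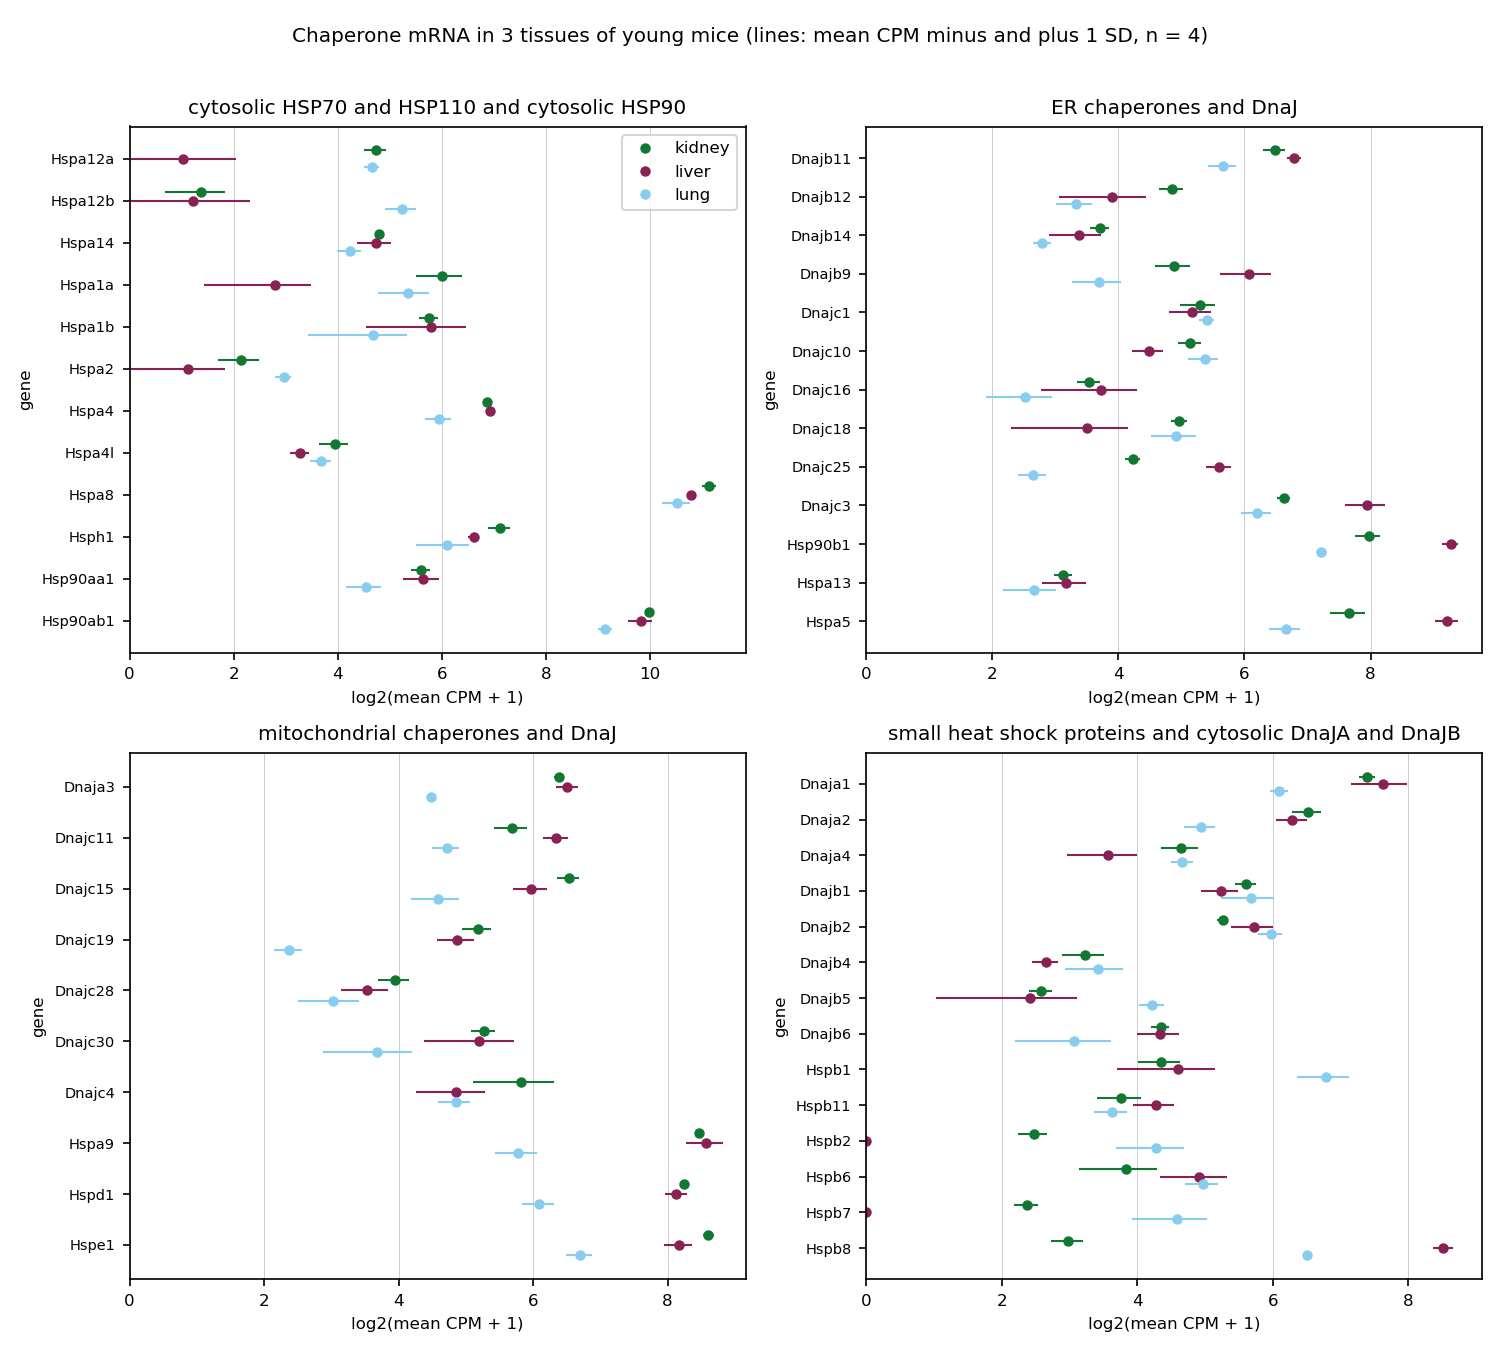
Mean level of chaperone genes in young kidney, liver and lung on a log2(mean CPM + 1) axis, grouped by role. Points are means of 4 libraries and lines span 1 SD to each side, and the mitochondrial genes lie lowest in lung (Hspa9 at 53.99 CPM in lung and 352 in kidney) while Hspa5 and Hsp90b1 lie highest in liver.

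Some members were at or under detection. Dnajb7, Dnajb8 and Dnajc5g, DnaJ genes of the germ line, had 0 counts in all 39 libraries, and Dnajc5b and Hspb9 had at most 1 and 2 counts in any library. Members under 3 counts in every library of a tissue numbered 8 in kidney, 14 in liver, 7 in lung and 11 of 84 in skin.

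The treatment comparison asked whether ABT-737 moved chaperone levels in old mice. No chaperone gene passed between ABT-737 and vehicle in any tissue with edgeR. In kidney this was 0 of 60 members, where 1.35% of all genes passed, and in liver 0 of 37, where 3.85% did. In lung and skin no gene of any kind passed (0%). At an unadjusted p under 0.05 there were 10 members in kidney (16.7%, with 14.8% of all genes), 5 in liver (13.5%, with 16.1%), 7 in lung (11.3%, with 16.1%) and 0 in skin (with 7.97% of all genes). DESeq2 called 0 members in each tissue as well, while of all genes it called 2.06% (kidney), 3.67% (liver), 2.52% (lung) and, for skin, 0.422%. Single libraries bore on these counts. Leaving out vehicle replicate 3 gave 3 in kidney (4.15% of all genes) and 2 in liver (8.78%), leaving out vehicle replicate 5 gave 1 in liver (4.87%), and leaving out ABT-737 replicate 4 gave 5 in lung (5.42%). With vehicle replicate 5 and ABT-737 replicate 4 both removed the lung count was 3 (4.28%).

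In kidney 47 of 60 members were higher and 13 lower with ABT-737 than with vehicle, with a median difference of 0.21, where the median of all genes was 0.01. The median was positive in each role list with tested genes except the small heat shock proteins (-0.03), and it was highest in the 2 cytosolic HSP90 genes (0.34) and the 8 cytosolic DnaJA and DnaJB genes (0.32). Dnaja1, a cytosolic DnaJ partner of HSP70, stood at 134, 35.6 and 55.9 CPM with vehicle and 106, 157 and 145 with ABT-737. Vehicle replicate 3 lay within the ABT-737 range, and the difference was 0.82 ± 0.32 (adjusted p = 0.229). Dnajc12 stood at 194, 120.4 and 149 CPM with vehicle and 195, 288 and 249 with ABT-737, groups that nearly met, with 0.65 ± 0.19 (adjusted p = 0.11). Dnaja3, a mitochondrial DnaJ protein, stood at 82.5, 67.7 and 100.5 CPM with vehicle and 129, 129 and 105 with ABT-737, with 0.53 ± 0.16 (adjusted p = 0.127). The smallest p in kidney belonged to Hspb7, which went the other way. It stood at 6.28, 9.58 and 14.1 CPM with vehicle and 2.57, 4.95 and 2.596 with ABT-737, without overlap, with -1.53 ± 0.40 (adjusted p = 0.0764). Leukocyte markers summed to 1979 to 2780 CPM in the kidney vehicle libraries and 496 to 766 in the ABT-737 libraries, and their part in these values was not tested.

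In liver the smallest p belonged to Dnajb9, which had 0, 4 and 6 counts with vehicle and 0 in each ABT-737 library, so that both groups were near the floor and no fold is given (adjusted p = 0.125). Hspb8 stood at 353, 330.1 and 258 CPM with vehicle and 170.4, 229.5 and 198 with ABT-737, without overlap, with -0.64 ± 0.22 (adjusted p = 0.145). Hspb6, a small heat shock protein of muscle, stood at 0, 5.85 and 16.7 CPM with vehicle and 15.9, 32.2 and 24.8 with ABT-737, with 1.42 ± 0.57 (adjusted p = 0.207). None of the 3 passed, and Hspa5, which was lower in both old groups than in young liver, stood at 0.33 ± 0.45 (adjusted p = 0.795) between the treatments.

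In lung the 3 members with the smallest p were all higher with ABT-737. Dnajc25, a DnaJ protein of the ER, stood at 10.1, 8.15 and 13.5 CPM with vehicle and 22.5, 16.9 and 22.8 with ABT-737, without overlap, with 0.98 ± 0.33 (adjusted p = 0.185). Hspa4l, an HSP110 relative, stood at 26.8, 15.4 and 22.1 CPM with vehicle and 64.4, 16.9 and 55.5 with ABT-737, with 1.12 ± 0.40 (adjusted p = 0.201), and here ABT-737 replicate 4 lay within the vehicle range. Dnajb14, another DnaJ protein of the ER membrane, stood at 6.71, 8.58 and 10.8 CPM with vehicle and 20.6, 9.48 and 22.8 with ABT-737, with 1.03 ± 0.38 (adjusted p = 0.208). The stress-inducible HSP90 gene Hsp90aa1 showed the same split, at 69.1, 30.9 and 44.9 CPM with vehicle and 136, 21.1 and 161 with ABT-737 (1.16 ± 0.52, adjusted p = 0.287). In skin Dnajc21, Dnajb1 and Dnajc30 had the smallest p, with 0.54 ± 0.25 (adjusted p = 0.635), 0.45 ± 0.21 (adjusted p = 0.649) and 0.40 ± 0.21 (adjusted p = 0.679).

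**Figure D2:**
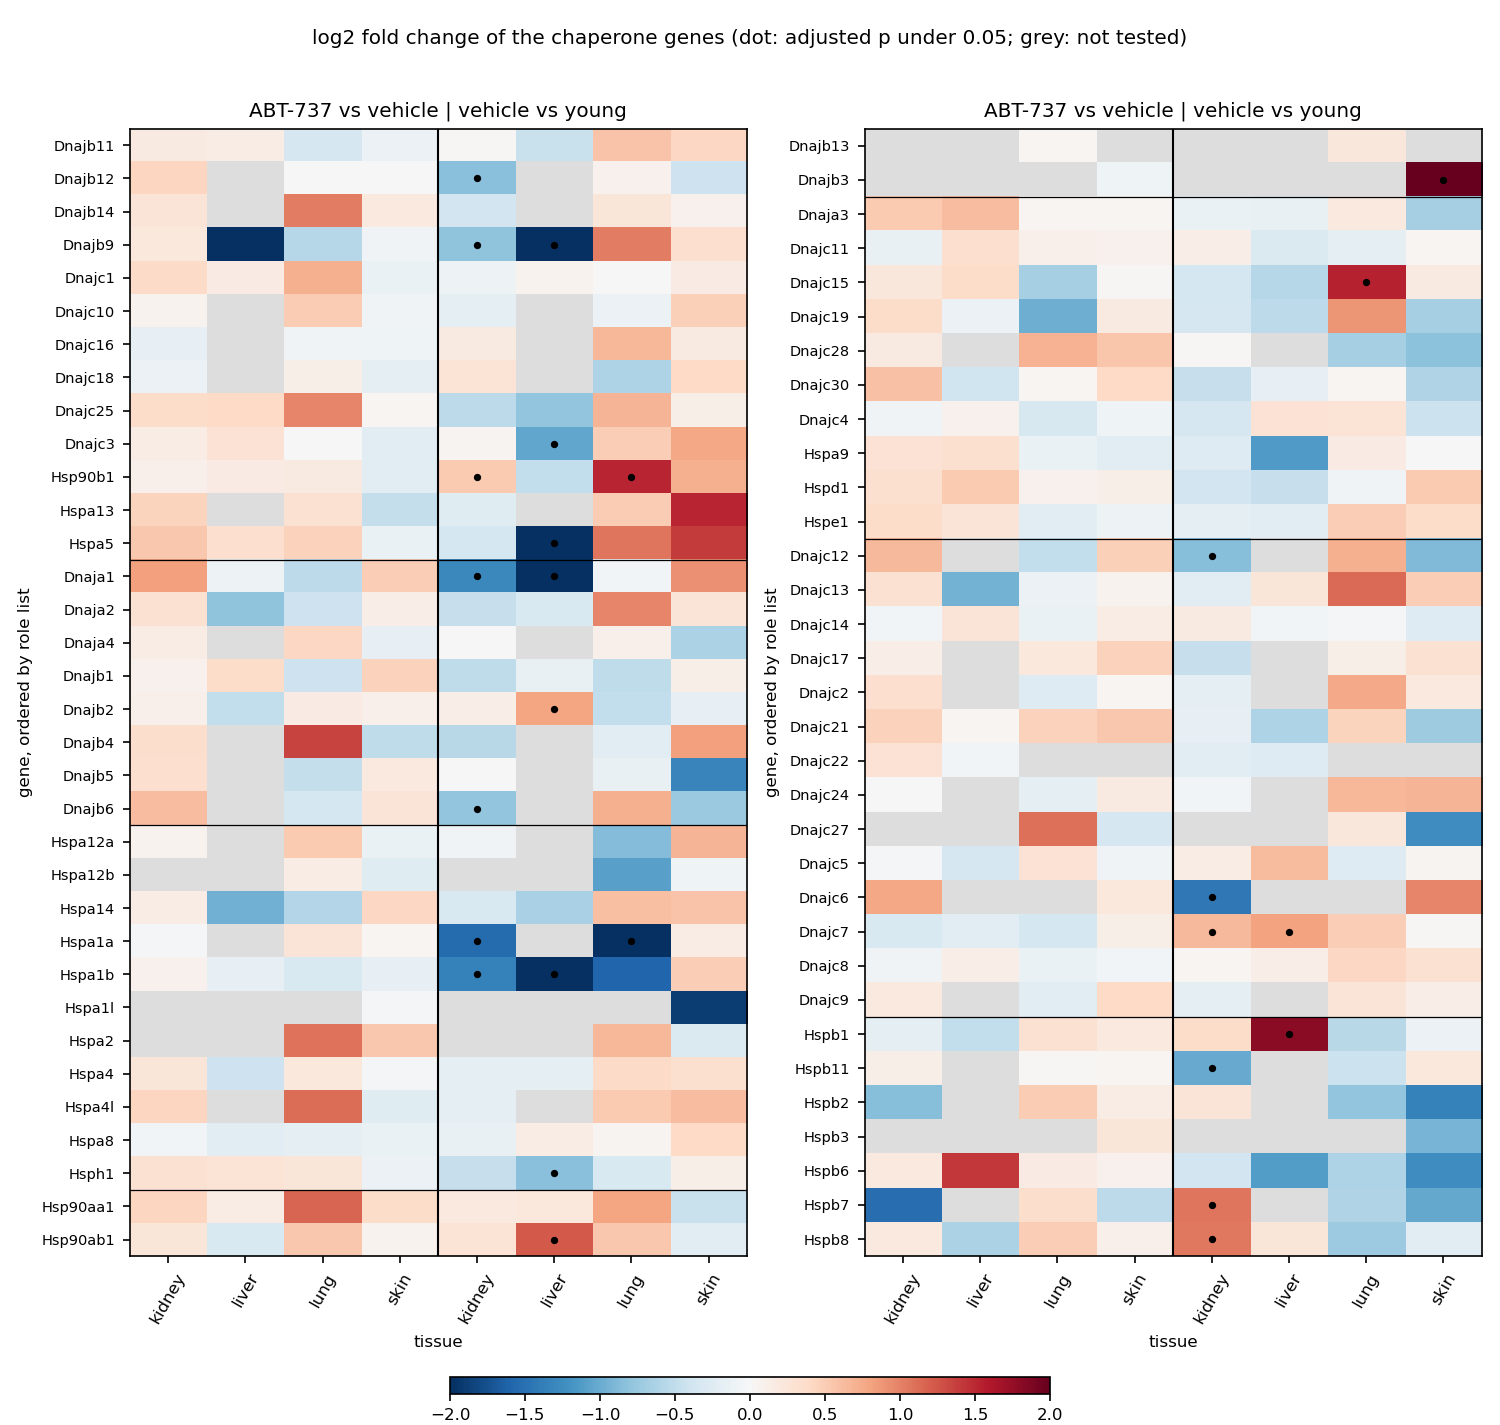
Log2 differences of chaperone genes between ABT-737 and vehicle (left columns) and between vehicle and young (right columns) in kidney, liver, lung and skin, with colours that end at 2 to each side and a dot where the adjusted p was under 0.05. No dot falls in the treatment columns, and the age columns show Hspa5 at -2.66 in liver and 1.07 in lung.

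Between vehicle-treated old mice and young mice, 13 of 60 members passed in kidney (13.3% of all genes did), 4 of them higher (7.75% of all genes) and 9 lower (5.5%). There were 10 of 37 in liver (22.6%), 4 higher (11.7%) and 6 lower (10.8%), 3 of 62 in lung (12.9%) and 2 of 69 in skin (11.2%). Between ABT-737-treated old mice and young mice, 3 passed in kidney (2.12% of all genes), 6 in liver (8.4%), 5 in lung (2.55%) and, of the skin genes, 1 (5.17%). With vehicle the share of members that passed was above that of all genes in kidney (21.7%) and liver (27%) and under it in lung (4.84%) and skin (2.9%), and no test was made of these differences. Single libraries moved the counts, given here without the share of all genes in each fit and not read as a trait of the members. For vehicle, kidney gave 6 and 7 members when vehicle replicate 4 or 5 was left out, and liver 6 when young replicate 3 was. Lung gave 8 when vehicle replicate 4 was left out, 6 when ABT-737 replicate 4 or 5 was, and 1 when young replicate 1, 3 or 4 was. For ABT-737, leaving out its replicate 4 gave 5 in kidney, and leaving out its replicate 4 or 5 gave 3 in liver. The young libraries are shared by both comparisons. All 3 kidney genes and all 6 liver genes that passed with ABT-737 were among those that passed with vehicle, as were 2 of the 5 lung genes and 0 in skin. In lung a fit with the replicate number as a block called 1 member with vehicle (Hspa1a) and 0 with ABT-737. It called 333 and 4 of all 11949 genes. The labels give no pairing of mice, and only replicates 3 and 4 held both old and young libraries. Young replicates 1 and 2 and old replicate 5 do not compare old with young within a block, so fewer libraries bear on these counts.

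Inducible HSP70 transcripts were lower in old mice, with Hspa1a and Hspa1b passing in kidney, Hspa1a in lung and Hspa1b in liver. In kidney Hspa1a (chr17:34969359-34972156, mm10) stood at 97.8, 44.4, 68.8 and 74.3 CPM in young mice, 26.3, 24.6 and 22.1 with vehicle and 22.6, 27.2 and 21.3 with ABT-737. No old library reached the lowest young one, and the old groups overlapped each other. The difference from young was -1.54 ± 0.23 (adjusted p = 0.000392) with vehicle and -1.57 ± 0.23 (adjusted p = 0.00206) with ABT-737. Hspa1b (chr17:34956429-34959238) stood at 65.2, 47.7, 62.4 and 63.7 CPM in young kidney, 26.7, 22.6 and 20.2 with vehicle and 19.5, 40.6 and 14.02 with ABT-737, again without overlap with young. Its differences were -1.35 ± 0.27 (adjusted p = 0.00297) and -1.26 ± 0.26 (adjusted p = 0.0179), the second of which lost its call in 5 of 10 fits that each left out 1 library, namely those without ABT-737 replicate 3 or 5 or young replicate 1, 3 or 4 (adjusted p up to 0.0866). All 8 tested HSP70 and HSP110 genes were lower in vehicle kidney than in young kidney, but only these 2 passed, and the median of the list was -0.25. The constitutive Hspa8, the HSP70 of unstressed cells, stood at 2524 ± 258 CPM in young (SD, n = 4) and 2269 ± 223 in vehicle kidney (n = 3), with -0.15 ± 0.17 (adjusted p = 0.594).

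In lung Hspa1a stood at 65.2, 38.2, 61.9 and 32.2 CPM in young mice, 20.1, 7.72 and 7.48 with vehicle and 20.6, 11.6 and 8.501 with ABT-737. Old and young groups did not overlap, with -2.12 ± 0.43 (adjusted p = 0.0073) and -1.87 ± 0.44 (adjusted p = 0.0417). The second call was lost without ABT-737 replicate 5 or any of the 4 young libraries (adjusted p up to 0.189). Hspa1b in lung did not pass, with 41.2, 13.9, 51.01 and 16.1 CPM in young mice, 24.1, 2.57 and 5.98 with vehicle and 9.66, 2.11 and 11.2 with ABT-737, and -1.58 ± 0.67 (adjusted p = 0.127) between vehicle and young. In liver Hspa1a had at most 4 counts in any library and was not tested. Hspa1b had 10, 17, 46 and 22 counts in young liver, 0, 6 and 5 with vehicle and 3, 2 and 1 with ABT-737. The groups did not overlap in counts, and the difference with vehicle was -2.73 ± 0.57 (adjusted p = 0.00295). With ABT-737 the ratio of young to ABT-737 from summed counts and depths was 7.94, with an exact 95% counting interval of 3.52 to 22.2. This interval covers counting error only and not the spread between mice. The edgeR test gave an adjusted p of 0.0127, a call lost without ABT-737 replicate 4 or 5. Hspa1a and Hspa1b are near-identical copies, so the split of reads between them is uncertain.

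Skin had no such difference past the threshold. Hspa1a stood at 65.1, 109 and 103 CPM in young skin, 116, 97.5 and 95.5 with vehicle and 143, 71.3 and 103 with ABT-737, and Hspa1b at 124, 183 and 166 CPM in young skin, 211, 229 and 228 with vehicle and 263, 143 and 193 with ABT-737. The groups of Hspa1a overlapped. For Hspa1b every vehicle library lay above every young one, while the ABT-737 and young libraries overlapped. The differences between vehicle and young were 0.15 ± 0.28 (adjusted p = 0.734) for Hspa1a and 0.50 ± 0.25 (adjusted p = 0.201) for Hspa1b. Skin was counted on other gene models, so its difference was not tested against those of the other tissues. The list of 12 heat-inducible genes, which includes Hspa1a and Hspa1b, did not move as 1 group. It also holds the constitutive Hspa8 and Hsp90ab1. Between vehicle and young kidney 3 of the 12 passed as lower, Hspa1a, Hspa1b and Dnaja1 (5.5% of all genes), and 0 as higher (7.75%). Of 10 tested in liver 3 passed as lower, Hspa1b, Dnaja1 and Hsph1 (10.8%), and 2 as higher, Hsp90ab1 and Hspb1 (11.7%). Lung had 1 as lower, Hspa1a, and skin 0, where 12.9% and 11.2% of all genes passed in either direction. The medians were -0.29, -0.19, -0.06 and 0.26, beside medians over all genes of 0.01, 0.02, 0.04 and 0.05.

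**Figure D3:**
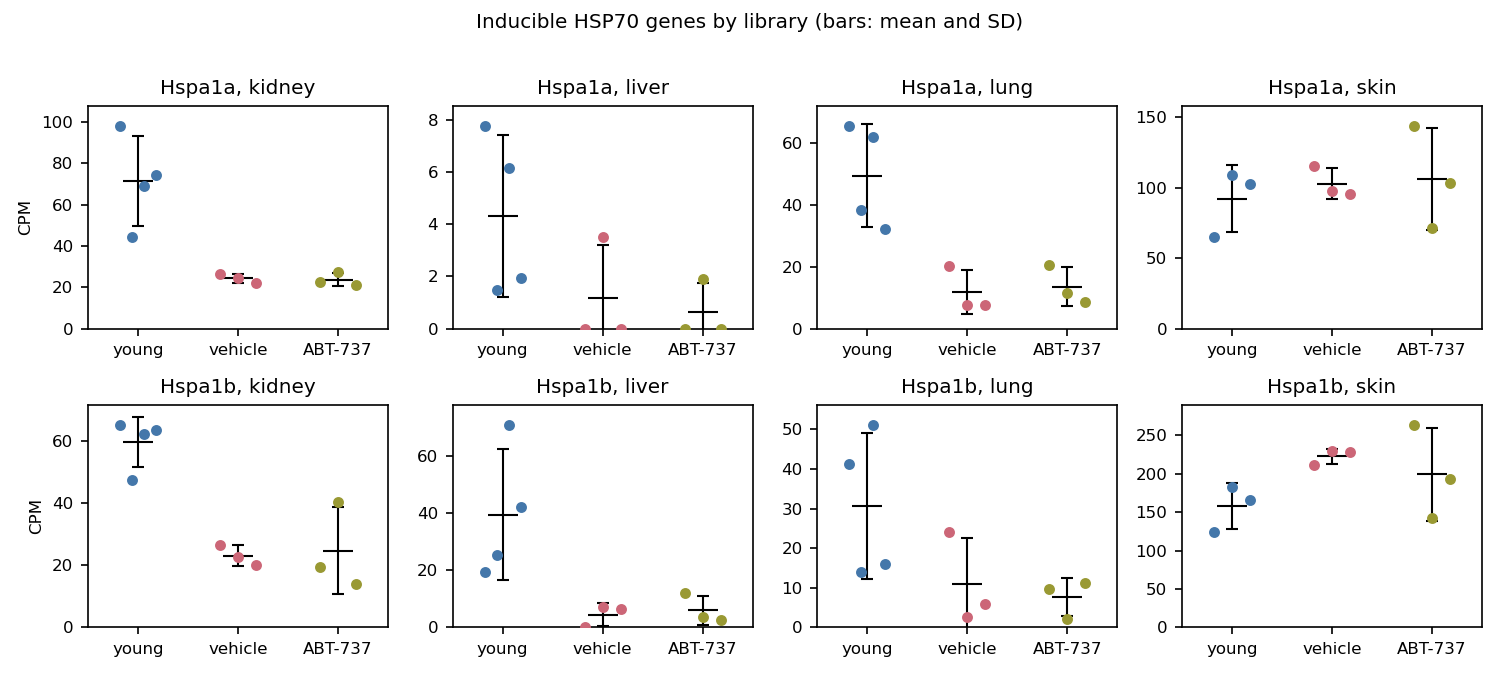
Level of Hspa1a and Hspa1b in CPM in each library of kidney, liver, lung and skin, for the young, vehicle and ABT-737 groups. Each point is a library and bars give the mean and SD, on axes that start at 0. The old kidney libraries lie under every young one for both genes. In skin the Hspa1a groups overlap, and the vehicle libraries of Hspa1b lie above the young ones.

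Clock and blood cell markers moved with the same contrasts. Transcripts of the circadian clock and its output (12 genes) summed to 843 to 949 CPM in young kidney and 321 to 348 and 319 to 350.4 in the vehicle and ABT-737 groups. These sums also lay lower in both old groups of liver, lung and skin, without overlap, for example 1272 to 1331 CPM in young and 185 to 377 in vehicle skin. Single clock genes moved both ways. In vehicle kidney 6 of the 12 passed as lower, among them the output genes Dbp (-3.93) and Nr1d1 (-3.20), and Arntl (2.86), Npas2 (2.84) and Cry1 (2.26) passed as higher. With vehicle 2 passed as lower and 1 as higher of 5 tested in liver, 5 and 2 of 12 in lung, and 6 and 2 of 11 in skin. Leukocyte markers summed to 336 to 510.5 CPM in young kidney, against the vehicle sums given earlier, and erythroid markers summed to 1550 to 8416 CPM in young and 16770 to 17490 in vehicle kidney. Immediate early genes, which respond to handling and stress, overlapped between young and vehicle groups in each tissue. The part of these in the chaperone differences was not tested, and the labels give no time of killing.

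Dnaja1 (chr4:40722468-40734965, mm10) was lower in old liver and in vehicle kidney. In liver it stood at 87.1, 152, 178 and 153 CPM in young mice, 0, 17.6 and 50.1 with vehicle and 31.7, 24.7 and 22.3 with ABT-737, without overlap with young, and the differences were -2.38 ± 0.44 (adjusted p = 0.00131) and -2.48 ± 0.48 (adjusted p = 0.0052). In kidney the young libraries stood at 171, 191, 205 and 182 CPM, above all 3 vehicle libraries given earlier, with -1.28 ± 0.30 (adjusted p = 0.00965) for vehicle and -0.46 ± 0.29 (adjusted p = 0.448) for ABT-737. The kidney call was lost without vehicle replicate 5 (adjusted p = 0.0644). In skin Dnaja1 was higher with ABT-737, from 18.8, 17.3 and 20.01 CPM in young mice to 47.9, 19.9 and 38.6 with vehicle and 44.9, 47.4 and 56.99 with ABT-737, with 0.92 ± 0.30 (adjusted p = 0.0766) and 1.41 ± 0.30 (adjusted p = 0.036). The skin call was lost in 5 of 9 fits that left out 1 library (ABT-737 replicates 4 and 5 and each young library, adjusted p up to 0.152). Other genes overlap Dnaja1 on the opposite strand, and whether counting used the strand is not given in the sources used here.

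Hsp90ab1 and Hspb1 were higher in old liver. Hsp90ab1 (chr17:45567778-45573261), the constitutive HSP90, stood at 683, 760, 521 and 650.3 CPM in young liver, 2182, 1216 and 1221 with vehicle and 1502, 1053 and 1161 with ABT-737. Every old library lay above every young one, with 1.23 ± 0.26 (adjusted p = 0.00317) and 0.92 ± 0.26 (adjusted p = 0.0371). Hspb1 (chr5:135887919-135889563), a heat-inducible member, stood at 9.68, 10.4, 26.1 and 21.1 CPM in young liver, 78.6, 47.99 and 61.6 with vehicle and 51.5, 45.5 and 32.2 with ABT-737, also without overlap, with 1.81 ± 0.34 (adjusted p = 0.00138) and 1.32 ± 0.37 (adjusted p = 0.0387). The vehicle calls of both genes held in every fit that left out 1 library, while the ABT-737 calls were lost in 7 of 10 and 6 of 10 fits, among them those without any 1 ABT-737 library (adjusted p up to 0.156 and 0.154). Smaller differences sat near the threshold. Dnajb2, which links HSP70 to ubiquitin-dependent degradation, stood at 0.79 ± 0.27 (adjusted p = 0.0462), Dnajc7, a co-chaperone that binds HSP70 and HSP90, at 0.81 ± 0.27 (adjusted p = 0.0438), and Hsph1, the main HSP110, at -0.83 ± 0.29 (adjusted p = 0.0496). They lost their calls in 8 of 10, 7 of 10 and 8 of 10 such fits. Liver leukocyte markers summed to 151 to 194 CPM in young, 1087 to 2278 with vehicle and 159 to 299.6 with ABT-737, and their part in these values was not tested.

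The ER chaperone genes Hspa5, Dnajb9 and Dnajc3 were lower in old liver. Hspa5 (chr2:34772090-34776529) stood at 434, 356, 432 and 501 CPM in young liver, 4.36, 71.4 and 104 with vehicle and 95.1, 68.3 and 96.5 with ABT-737. Every old library lay under every young one, with -2.66 ± 0.41 (adjusted p = 0.000318) and -2.33 ± 0.41 (adjusted p = 0.00312). The lowest value belonged to vehicle replicate 3, the shallowest library. Without that library the call with vehicle held, as it did without any other. Dnajb9 (chr12:44205897-44210068) stood at 40.7, 46.2, 66.05 and 38.4 CPM in young liver and 0, 4.68 and 7.71 with vehicle (-3.13 ± 0.45, adjusted p = 0.000323). With ABT-737 it had 0 counts in all 3 libraries, at least 5.74-fold lower than the young mean of 47.8 CPM if each library is set at its floor of 3 counts (adjusted p = 0.000596). Dnajc3 (chr14:118937932-118981702) stood at 122, 189, 197 and 201 CPM in young liver, 48.01, 76.1 and 122 with vehicle and 131, 121 and 69.3 with ABT-737, with -1.04 ± 0.30 (adjusted p = 0.0203) and -0.74 ± 0.30 (adjusted p = 0.147). Its vehicle and young ranges met at 122 CPM, and the call was lost without vehicle replicate 4 or young replicate 3 (adjusted p up to 0.0769). Hsp90b1 did not pass, at 397, 435, 468 and 485 CPM in young liver, 367, 270.4 and 326 with vehicle and 365, 336 and 369 with ABT-737, with -0.48 ± 0.20 (adjusted p = 0.0984) between vehicle and young. Of the 7 ER members tested in liver, 6 were lower with vehicle than in young mice, 3 of them passed (10.8% of all genes passed as lower), and the median was -0.80.

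The ER stress list was lower in old liver as well. Of 18 tested genes of this list, which holds folding enzymes and regulators outside the chaperone families, 15 were lower with vehicle than in young mice, with a median of -0.74, and 7 passed as lower and 1 as higher. Of all liver genes, 10.8% passed as lower and 11.7% as higher with vehicle. Pdia3, a disulfide isomerase for glycoproteins, differed by -2.31 ± 0.38 (adjusted p = 0.000488), Creld2, which is induced by ER stress, by -1.93 ± 0.32 (adjusted p = 0.000565), Herpud1, of ER-associated degradation, by -1.85 ± 0.26 (adjusted p = 0.000153), Canx, the lectin chaperone calnexin, by -1.64 ± 0.27 (adjusted p = 0.00052), and Manf, a secreted ER stress protein, by -1.59 ± 0.31 (adjusted p = 0.00174). Sil1, the nucleotide exchange factor of BiP, was the gene that rose, by 0.73 ± 0.23 (adjusted p = 0.0355). With ABT-737 6 genes of the list passed as lower than in young mice, led by Pdia3 at -2.66 ± 0.43 (adjusted p = 0.00212), where 8.4% of all genes passed in either direction. In the list of HSF and cytosolic co-chaperones, 2 of 16 passed as lower with vehicle, the HSP90 co-chaperone Ptges3 at -2.30 ± 0.53 (adjusted p = 0.00628) and the HSP70 exchange factor Bag3 at -1.15 ± 0.36 (adjusted p = 0.0329). In the TRiC chaperonin, which folds actin and tubulin, Cct4, Cct6a and Tcp1 of 8 subunits passed as lower, by -1.90, -0.83 and -0.81.

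In lung the ER genes lay on the other side. Hsp90b1 (chr10:86690841-86705444) stood at 183, 197, 190.5 and 170 CPM in young mice, 712, 382 and 503 with vehicle and 397, 348 and 1052 with ABT-737. Every old library lay above every young one, with 1.52 ± 0.37 (adjusted p = 0.0162) and 1.70 ± 0.37 (adjusted p = 0.0384). Neither call held in every fit, since the first was lost without vehicle replicate 3 or young replicate 1, 3 or 4 (adjusted p up to 0.0651) and the second without ABT-737 replicate 5 or any young library (up to 0.175). Hspa5 stood at 140.3, 99.4, 114 and 143 CPM in young lung, 354, 205 and 229 with vehicle and 389, 117 and 568 with ABT-737 and did not pass, with 1.07 ± 0.40 (adjusted p = 0.0934) and 1.53 ± 0.41 (adjusted p = 0.0596). The vehicle group did not overlap the young group, whereas ABT-737 replicate 4 lay within it. Dnajb9 stood at 10.3, 18.8, 18.4 and 12.5 CPM in young lung, 39.6, 15.9 and 35.9 with vehicle and 17.4, 11.6 and 30.4 with ABT-737, with 1.02 ± 0.39 (adjusted p = 0.0985) between vehicle and young. Of 13 ER members, 11 were higher with vehicle than in young lung, 1 passed, and the median was 0.50. Of all lung genes, 12.9% passed in either direction. In the ER stress list, 15 of 20 were higher and 5 passed, among them Edem1, which takes misfolded glycoproteins to degradation (2.14 ± 0.35, adjusted p = 0.00306), the BiP cofactor Sdf2l1 (1.77 ± 0.46, adjusted p = 0.0234), Creld2 (1.77 ± 0.29, adjusted p = 0.00314), Pdia3 (1.49 ± 0.46, adjusted p = 0.0456) and Pdia6 (1.04 ± 0.31, adjusted p = 0.0406).

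The age differences of 12 members differed among kidney, liver and lung by an interaction test in 1 fit of all 30 libraries of these tissues (13.9% of all genes did). This fit treats libraries as independent, although the same mouse may have given more than 1 tissue. For Hspa5 the differences between vehicle and young in that fit were -0.36 in kidney, -2.63 in liver and 1.07 in lung (adjusted p = 0.000239). For Dnajb9 they were -0.82, -3.16 and 1.02 (adjusted p = 0.000127), and for Hsp90b1 0.50, -0.49 and 1.52 (adjusted p = 0.00267). All 3 were lowest in liver and highest in lung. The treatment difference varied among the tissues for 1 member, Dnajc12 (adjusted p = 0.0429, where 0.0992% of all genes passed). Plasma cells, which make much ER protein, were looked at through 6 markers chosen after the values were seen. These summed to 48.7 to 67.7 CPM in young lung, 366 to 653 with vehicle and 92.1 to 554 with ABT-737, and to 81.4 to 128 in young and 26.97 to 114 in vehicle liver. Leukocyte markers summed to 2667 to 3411 CPM in young and 6974 to 12750 in vehicle lung. The part of these cells in the ER differences was not tested.

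**Figure D4:**
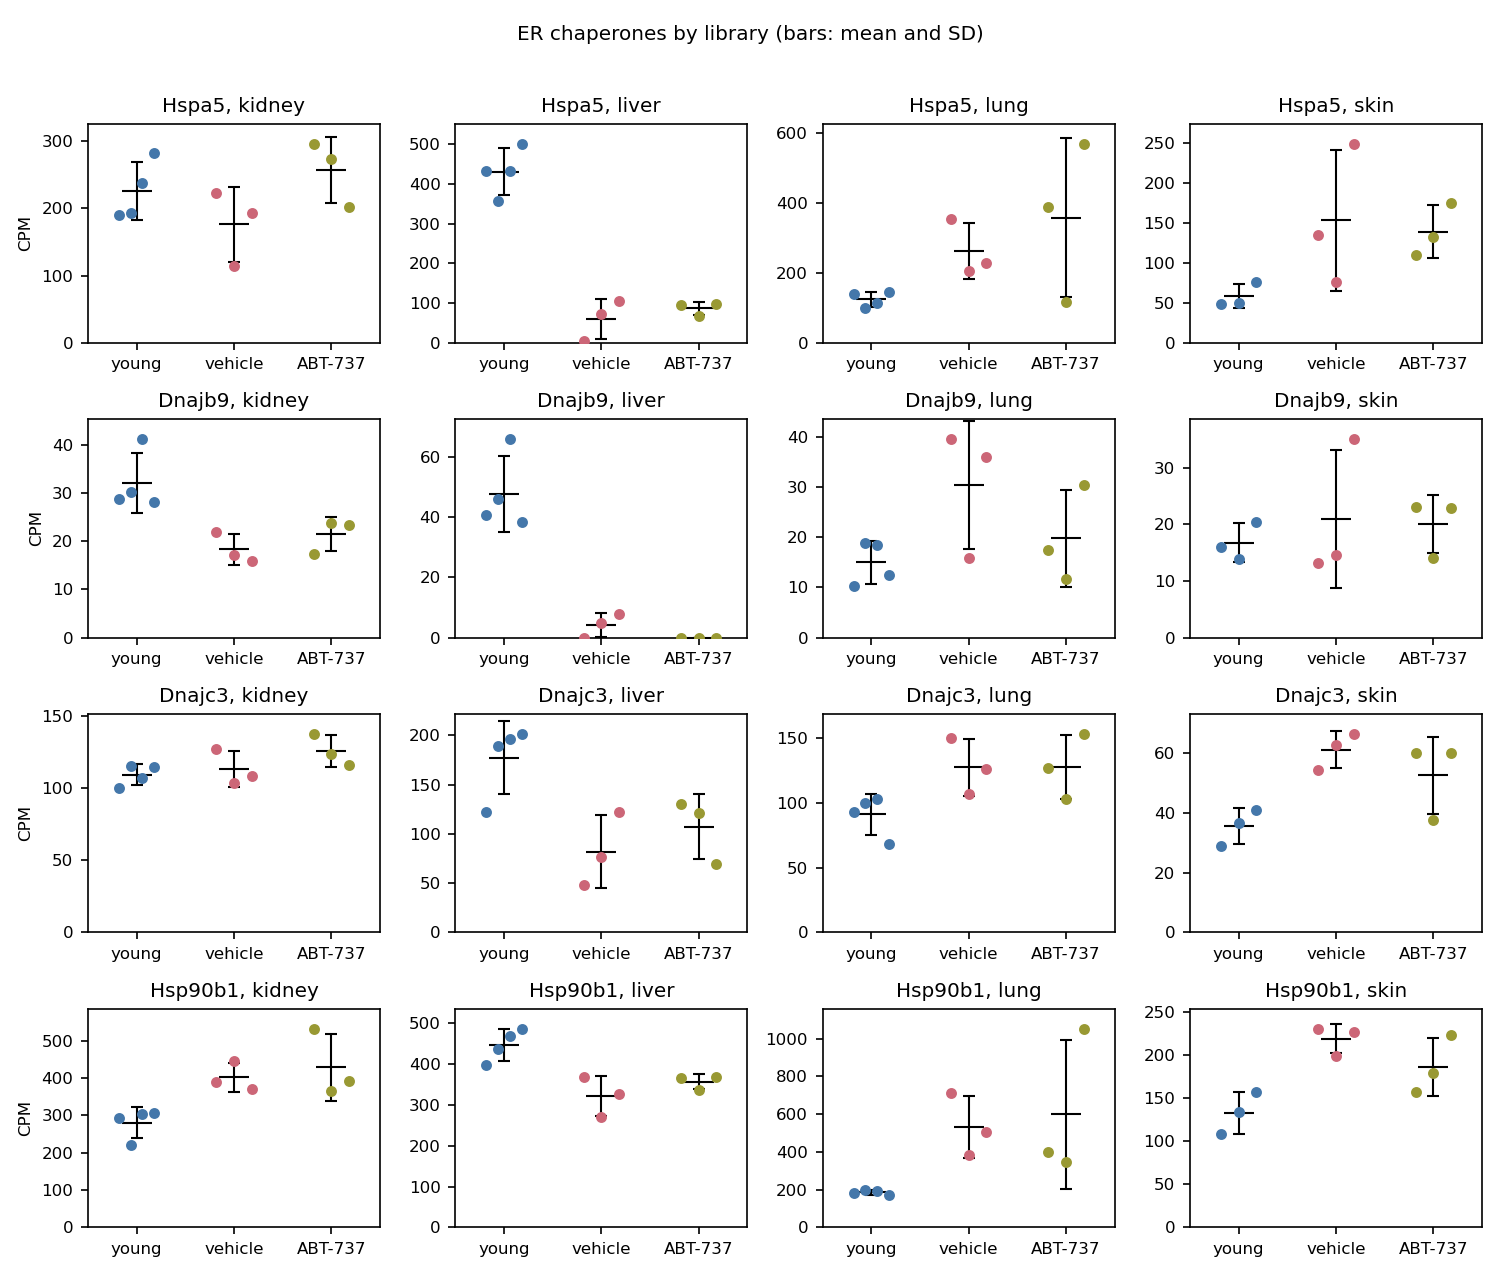
Level of the ER chaperone genes Hspa5, Dnajb9, Dnajc3 and Hsp90b1 in CPM in each library of the 4 tissues, by group, with mean and SD on axes that start at 0. In liver the Hspa5 values of old mice lie between 4.36 and 104 CPM, under all young ones (356 to 501), and in lung the vehicle libraries of Hsp90b1 (382 to 712 CPM) lie above all young ones.

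**Figure D5:**
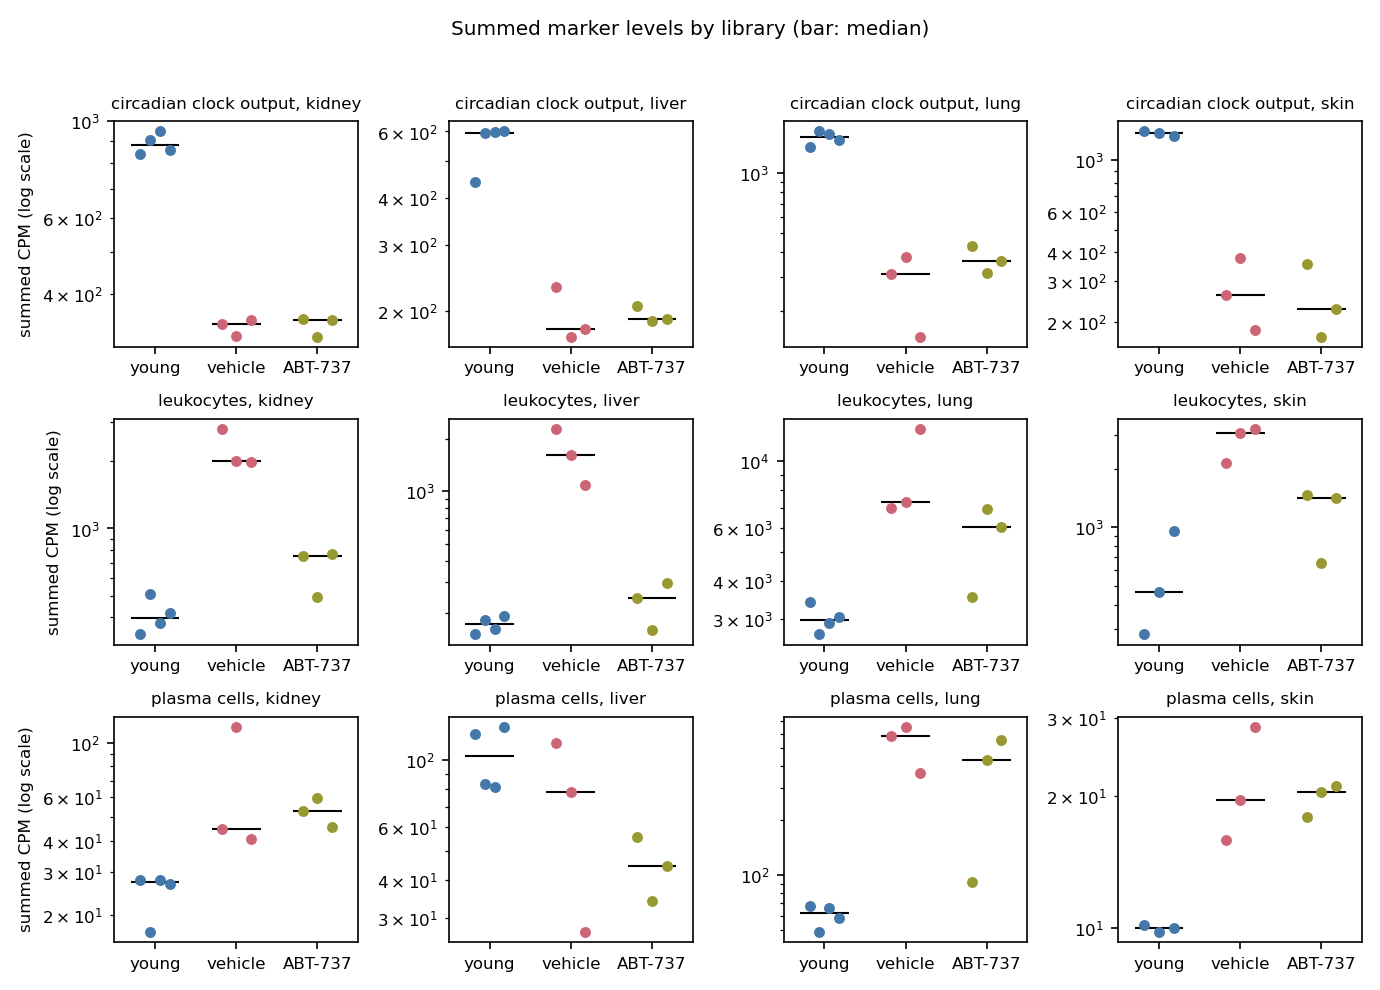
Summed CPM of circadian clock, leukocyte and plasma cell marker genes in each library of the 4 tissues, on log axes, with a bar at the median of each group. The sum of the 12 clock genes, of which some were higher, lies lower in both old groups of all tissues, and the leukocyte sum lies higher with vehicle than in young mice.

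In skin the ER genes had higher values in old mice without passing. Hspa5 stood at 48.5, 50.1 and 75.96 CPM in young skin, 134, 75.8 and 248 with vehicle and 110, 132 and 175 with ABT-737, with 1.39 ± 0.41 (adjusted p = 0.0556) between vehicle and young. Hsp90b1 stood at 109, 134 and 157 CPM in young skin, 231, 199.7 and 228 with vehicle and 157, 179 and 224 with ABT-737, with 0.72 ± 0.21 (adjusted p = 0.0556). Hspa13, an atypical microsomal HSP70, differed by 1.53 ± 0.45 (adjusted p = 0.0572), and Dnajc3 by 0.78 ± 0.23 (adjusted p = 0.0582). Of 13 ER members 12 were higher with vehicle than in young skin and 0 passed with edgeR, with a median of 0.40. Of all skin genes, 11.2% passed in either direction. At unadjusted p under 0.05 there were 5 higher ER members, given without the share of all genes and not read as a trend. In the ER stress list 15 of 19 were higher, and Sdf2l1 (2.23 ± 0.56, adjusted p = 0.0359), Manf (1.54 ± 0.32, adjusted p = 0.022), Creld2, Edem1 and Pdia6 passed. Skin plasma cell markers summed to 9.78 to 10.1 CPM in young, 15.8 to 28.7 with vehicle and 17.9 to 21.03 with ABT-737, and their part was not tested.

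In kidney the ER list was mixed. Hsp90b1 rose, from 292, 220.5, 303 and 307 CPM in young mice to 389, 445 and 371 with vehicle, without overlap (0.52 ± 0.16, adjusted p = 0.0446, lost in 7 of 10 fits that left out 1 library). Dnajb9 fell, from 28.7, 30.3, 41.3 and 28.2 to 21.99, 17.1 and 15.96 CPM, also without overlap (-0.80 ± 0.21, adjusted p = 0.0173), and was at 17.5, 23.8 and 23.4 with ABT-737. Its call was lost without vehicle replicate 4 or 5 or young replicate 3 (adjusted p up to 0.0906). Dnajb12, a DnaJ protein of the ER membrane, fell and passed as well, a call lost in 4 of 10 such fits. Pathway genes were mixed too, with Creld2 (0.78) and Pdia6 (0.47) higher and Pdia3 (-0.85), Canx (-0.58) and Herpud1 (-0.50) lower. The HSP70 cofactor St13 and the mitochondrial protease subunit Clpx were higher with vehicle, by 0.64 and 0.76, and with ABT-737, by 0.85 and 1.05.

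Other members of old kidney moved in both directions. Hspb8 (chr5:116408491-116422864) stood at 6.86, 6.61, 9.66 and 7.85 CPM in young kidney, 19.6, 15.1 and 13.6 with vehicle and 17.98, 16.3 and 21.8 with ABT-737. Old and young groups did not overlap, with 1.06 ± 0.24 (adjusted p = 0.00769) and 1.26 ± 0.23 (adjusted p = 0.0103), and both calls held whichever library was left out. Hspb7 was higher with vehicle than in young mice (4.72, 5.51, 3.81 and 4.62 CPM in young), by 1.07 ± 0.33 (adjusted p = 0.0409), a call lost in 6 of 10 fits that left out 1 library. Dnajc6 stood at 17.6, 22.9, 19.3 and 18.5 CPM in young kidney, 7.46, 6.16 and 7.98 with vehicle and 9.76, 14.8 and 12.98 with ABT-737, with -1.43 ± 0.23 (adjusted p = 0.00076) and -0.65 ± 0.21 (adjusted p = 0.132). Dnajc12 (chr10:63386563-63408840) stood at 325, 257, 281 and 259.9 CPM in young kidney against the vehicle values given earlier, with -0.85 ± 0.18 (adjusted p = 0.00454) and -0.20 ± 0.17 (adjusted p = 0.599). Both calls with vehicle held whichever library was left out, and in both genes the ABT-737 libraries lay between or across the other groups. Dnajb6, which keeps polyglutamine proteins from aggregating, and Hspb11, a subunit of the transport system of cilia in spite of its name, passed as lower with vehicle, Hspb11 by -1.003 ± 0.31 (adjusted p = 0.0403). These calls were lost in 3 of 10 and 6 of 10 fits that left out 1 library (adjusted p up to 0.0733 and 0.122). Dnajc7 rose, from 90.5, 82.1, 92.2 and 75.7 to 108, 169 and 125 CPM (0.64 ± 0.16, adjusted p = 0.0131, and adjusted p = 0.0926 without vehicle replicate 4).

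Further members of lung passed in a single comparison. Dnajc15, a mitochondrial DnaJ protein of the import motor, stood at 22.1, 38.9, 26.05 and 27.6 CPM in young lung, 63.7, 41.2 and 143 with vehicle and 41.9, 82.2 and 36.2 with ABT-737, with 1.54 ± 0.40 (adjusted p = 0.0234) and 0.88 ± 0.41 (adjusted p = 0.247). Its highest value was that of vehicle replicate 5, without which the adjusted p was over the threshold, as it was without young replicate 1, 3 or 4 (up to 0.218). Between ABT-737 and young, Dnajc25 differed by 1.66 ± 0.32 (adjusted p = 0.0288), from 8.34, 6.26, 5.97 and 5.72 CPM in young lung. Hspa4l differed by 1.64 ± 0.38 (adjusted p = 0.0413), from 16.2, 13.2, 17.4 and 12.5 CPM, and Hsp90aa1, at the edge of the threshold, by 1.95 ± 0.49, from 36.3, 25.7, 28.8 and 20.3 CPM. The last 2 genes share their pattern over the ABT-737 libraries, high in replicates 3 and 5 and low in replicate 4. Between ABT-737 and young lung 13 members passed when ABT-737 replicate 4 was left out (11.2% of all genes), 8 when vehicle replicate 5 was (5.87%), and 3 when ABT-737 replicate 3 was (2.23%). DESeq2 called 10 (6.55%). None passed with edgeR when ABT-737 replicate 5 or any 1 of the young libraries was left out.

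In skin 2 members passed between vehicle and young. Dnajc19-ps, a pseudogene, stood at 31.8, 32.8 and 35.5 CPM in young skin, 17.6, 17.8 and 12.7 with vehicle and 25.2, 22.7 and 16.5 with ABT-737, with -1.06 ± 0.23 (adjusted p = 0.0257). Its parent Dnajc19, named here after its values were seen, moved alike, at 17.4, 16.7 and 18.6 CPM in young skin, 10.5, 13.5 and 9.104 with vehicle and 13.8, 14.1 and 9.75 with ABT-737 (-0.67 ± 0.26, adjusted p = 0.113), and reads may be split between the copies. Dnajb3, a DnaJ gene of the testis, stood at 0.724, 2.302 and 1.36 CPM in young skin, 9.67, 3.92 and 6.35 with vehicle and 3.37, 7.83 and 7.62 with ABT-737, with 2.10 ± 0.59 (adjusted p = 0.0494). It lies within the Ugt1a gene cluster on the opposite strand, so its counts are uncertain. No member passed between vehicle and young skin without vehicle replicate 5, without young replicate 1 or 2, or without vehicle replicate 5 and young replicate 1 together, whereas 9 passed without ABT-737 replicate 3 (16.8% of all genes). Over the 9 fits that left out 1 library, the call of Dnajc19-ps was lost in 4 and that of Dnajb3 in 7. DESeq2 called 10 members (18.7% of all genes), and 8 between ABT-737 and young skin (14.9%). Between ABT-737 and young skin, 10 passed when ABT-737 replicate 3 was left out (19.6% of all genes) and 0 when ABT-737 replicate 4 or 5 or any young library was.

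The small heat shock proteins of skin had lower values in old mice. Of 7 tested, 6 were lower with vehicle than in young skin and 0 passed with edgeR, with a median of -0.92. At unadjusted p under 0.05 there were 2 lower, given without the share of all genes and not read as a trend. Hspb6 and Hspb7 are named after their values were seen. Hspb6 stood at 1420.3, 819 and 828 CPM in young skin, 558, 485 and 249 with vehicle and 814, 209.6 and 343 with ABT-737. Hspb7 stood at 603, 367 and 312 CPM in young skin, 216, 278 and 138 with vehicle and 274, 75.99 and 88.1 with ABT-737. In both genes every vehicle library lay under every young one. The difference of Hspb6 between vehicle and young was -1.25 ± 0.50 (adjusted p = 0.126). Skeletal muscle markers summed to 64100 to 92040 CPM in young skin, 9690 to 44980 with vehicle and 16120 to 52910 with ABT-737, and their part in these values was not tested. In lung all 6 tested small heat shock proteins were lower with vehicle than in young mice, with a median of -0.61, and 0 passed with edgeR. At unadjusted p under 0.05 there was 1, given without the share of all genes and not read as a trend. Cardiac muscle markers summed to 84.9 to 1173 CPM in vehicle and 1067 to 1967 in young lung, and smooth muscle markers to 312 to 779 and 689 to 1123, and their part in these values was not tested.

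No mitochondrial chaperone passed with age in kidney or liver. In kidney 8 of 10 and in liver 8 of 9 were lower with vehicle than in young mice, with medians of -0.29 and -0.30, and 0 passed with edgeR in either tissue. At unadjusted p under 0.05 there were 3 lower in kidney and 3 in liver. The share of all genes at that threshold is not set beside these counts, which are not read as a trend. Hspd1 stood at 338 ± 13.9 CPM in young kidney (SD, n = 4), 257 ± 56.1 with vehicle and 321 ± 11.9 with ABT-737 (n = 3), with -0.39 ± 0.15 (adjusted p = 0.0926). Hspa9 stood at 395 ± 15.3, 331 ± 89.97 and 407 ± 97.7 CPM, with -0.25 ± 0.18 (adjusted p = 0.399). In the list of mitochondrial protein quality control outside the families, Clpx in kidney and Trap1, the mitochondrial HSP90 (0.91 ± 0.25, adjusted p = 0.0268), in lung passed as higher, and Hscb and Timm44 in skin as lower (-1.10 and -0.92).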

How the data were processed

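RNA of kidney, liver, lung and skin was sequenced as 3′ end libraries, and the values analysed are the raw counts per gene that the authors deposited, with no normalization. The submitters' notes name bcl2fastq, HISAT 0.1.5, HOMER and mm10, and whether reads were collapsed by molecule barcodes is not given in the sources used here. Skin was counted on Ensembl models in a table of its own and was never compared with the other tissues. Each tissue was fitted with its 3 groups in edgeR 4.0.16 (R 4.3.3, limma 3.58.1) with filterByExpr, TMM and the quasi-likelihood test, and p-values were adjusted over all genes of the fit. The 12 libraries of young kidney, liver and lung had a fit of their own, and interactions used 30 libraries. Depth ran from 223957 to 3842808 counts. The study counts its replicates as mice, and the labels do not say which libraries of different tissues came from the same mouse. No replicates were identical.

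Same-numbered vehicle and ABT-737 libraries were checked for shared deviations from their group means. In lung all 3 correlations were over 0.1 (0.176, 0.296 and 0.427). Different-numbered lung libraries ran from -0.572 to 0.303, and vehicle replicate 4 correlated with ABT-737 replicate 3 at 0.303 and with replicate 4 at 0.296. The labels give no pairing, and these values do not establish one.

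Members and lists were chosen with earlier results of these data known. The genes named are a list of 19 core members, all members called, the 3 with the smallest p where none was called, the 5 widest differences between young tissues, and up to 5 called genes of each pathway list. Scripts were tested on simulated data. DESeq2 1.42.0, its size factors, other filters, fits of 2 groups, a replicate block and fits without each library were the alternatives.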

Additional observations from a re-analysis of the deposited data

Results flagged for a closer look

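In groups of 4, a library was looked at more closely where its gap to the next, as a share of the range, exceeded Dixon's 95% critical value, which chance does in about 1 of 20 groups. Of 29 young groups of named genes, 4 did. In young kidney these were Dnajb9 in replicate 3 (41.3 CPM, gap 0.835), Hsp90b1 in replicate 2 (220.5 CPM, gap 0.833) and Hspa1b in replicate 2 (47.7 CPM, gap 0.838), and in young liver Dnajc3 in replicate 1 (122 CPM, gap 0.847).

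The difference between vehicle and young was not the same in kidney, liver and lung, by an interaction test over 30 libraries (edgeR, adjusted p), for 12 members. For the ER genes the values were 0.000239 for Hspa5, 0.000127 for Dnajb9, 0.00267 for Hsp90b1, 0.0112 for Dnajc3 (0.03, -1.02 and 0.48 on the log2 scale in kidney, liver and lung) and 0.0255 for Dnajc25 (-0.55, -0.78 and 0.68). For cytosolic DnaJ genes they were 0.0166 for Dnaja1 (-1.31, -2.36 and -0.05), 0.0223 for Dnaja2 (-0.47, -0.29 and 0.98) and 0.0168 for Dnajb6 (-0.81, -1.69 and 0.70). Small heat shock proteins gave 0.00631 for Hspb1 (0.35, 1.83 and -0.56) and 0.00415 for Hspb8 (1.04, 0.23 and -0.74). The mitochondrial Dnajc15 gave 0.00191 (-0.37, -0.56 and 1.55).

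Dnajc12 was the member whose treatment difference also varied among the 3 tissues (adjusted p = 0.0429, 0.0992% of all genes passed), beside its age difference (adjusted p = 0.000574). Its differences between vehicle and young were -0.87, 2.20 and 0.68 in kidney, liver and lung, and those between ABT-737 and vehicle 0.67, -2.57 and -0.43. In liver, where it was too low to be tested alone, Dnajc12 stood at 13.6, 11.9, 10.8 and 11.5 CPM in young mice, 8.73, 92.5 and 41.1 with vehicle and 11.9, 13.3 and 2.48 with ABT-737, so that vehicle replicates 4 and 5 alone were high. The treatment call was lost in most fits that left out 1 library, with 0 members passing.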

How the results depend on the processing

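None of the 43 calls of members within a tissue changed direction under any setting. The median difference of the members changed sign between settings for ABT-737 against vehicle in liver (-0.20 to 0.14) and skin (-0.06 to 0.07) and for ABT-737 against young in kidney (-0.03 to 0.04). Of the 43 calls, 39 were kept by DESeq2, 40 with its size factors, 41 without a filter, 24 of 28 that could be tested at 10 counts or more in every library, 39 of 42 with only the 2 groups compared, 9 with a replicate block, and 299 of 427 over the fits without 1 library. The replicate block left 2 members in kidney for vehicle against young and 1 for ABT-737 against young (369 and 33 of 11123 genes). In this block only replicates 3 and 4 held both old and young libraries, and in skin only replicate 3. Fewer libraries therefore compare old with young within a block than in the main fit. The same pair of counts was 4 and 1 for liver (291 and 39 of 5583 genes) and 1 and 0 for lung (333 and 4 of 11949). It was 0 and 0 for skin (0 and 0 of 14224). Outside lung, same-numbered vehicle and ABT-737 libraries had correlations of -0.175, -0.21 and 0.02 in kidney, -0.044, 0.16 and -0.023 in liver and -0.574, -0.577 and 0.276 in skin. The labels give no pairing in any tissue. DESeq2 gave 10 in lung for ABT-737 against young (6.55% of all genes). It gave 10 and 8 in skin for vehicle and ABT-737 against young (18.7% and 14.9%). Without a filter there were 2 in kidney (368 of 17097 genes) and 1 in liver (512 of 14330) for ABT-737 against vehicle. Skin had 6 and 6 for vehicle and ABT-737 against young (2306 and 1667 of 29019). At 10 counts or more there were 4 and 0 in liver for vehicle and ABT-737 against young (496 and 86 of 2121 genes). Lung had 2 for ABT-737 against young (123 of 8539), and skin 4 for vehicle against young (1200 of 10234). There were 11, 25 and 23 between young tissues (2099, 2820 and 2717 of 3640). The age interaction had 4 and the treatment interaction 0 (479 and 11 of 1798). With only the 2 groups compared there were 10 in liver for ABT-737 against young (1102 of 5110 genes). Lung had 7 for vehicle against young (2239 of 11529). Skin had 6 and 3 for vehicle and ABT-737 against young (2013 of 13196 and 996 of 13301). Of the settings added after seeing the data, 1 left out vehicle replicate 5 and ABT-737 replicate 4 in lung. It gave 3 for ABT-737 against vehicle and 15 against young (524 and 2101 of 12247 genes). Skin without vehicle replicate 5 and young replicate 1 gave 0 and 0 for vehicle and ABT-737 against young (0 and 3 of 14546). The cause of these moves was not tested. Stricter filters tested fewer genes and 2-group fits used fewer samples, and the part of either in these moves was not tested.

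Over the fits without 1 library, members that passed ranged in kidney from 0 to 3 (ABT-737 against vehicle), 6 to 16 (vehicle against young) and 2 to 5 (ABT-737 against young), in liver from 0 to 2, 6 to 11 and 3 to 8, in lung from 0 to 5, 1 to 8 and 0 to 13, and in skin from 0 to 0, 0 to 9 and 0 to 10. They ranged from 23 to 29, 47 to 50 and 42 to 43 between young tissues, from 0 to 1 for the treatment interaction and from 10 to 20 for the age interaction. Shares of all genes are not set beside these ranges, which are not read as a trait of the members. Depth was lowest in liver, where 37 of 72 members could be tested, and its part in that number was not tested.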
